A study of Mus musculus with 3 samples.

Results

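The 32 genes described here are interferon stimulated genes, a set of antiviral and antimicrobial genes that cells switch on after an interferon signal. They were matched by gene symbol, and all 32 were found among the 31053 genes of the deposited count matrix. The tissue was distal colon and anus from C57Bl/6 mice bought at 6 weeks of age, and 5 mice were pooled for each day. Day 0 mice were untreated and histologically normal. Day 7 mice had drunk 3% DSS (dextran sulfate sodium, which damages colon epithelium) for 6 days and had severe colitis. Day 42 mice had the same DSS course and had recovered. Each day gave 1 single-cell 3' library after trypsin digestion and removal of dead cells, so there is no replicate, no test was made, and day, library, mouse pool and DSS exposure cannot be told apart.

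The libraries held 11037 cells and 89241138 unique molecular identifiers (UMIs, counted RNA molecules) at day 0, 14376 cells and 151886649 UMIs at day 7, and 11667 cells and 72258639 UMIs at day 42. The authors' annotation of each cell was used, with 14 names over 29 clusters, and 139 cell barcodes occurred in 2 libraries and 0 in all 3. Levels are UMIs summed over the cells of an annotation per 1000000 UMIs of those cells (CPM), and the 95% intervals are exact Poisson intervals that hold counting error and leave out differences among mice. The change between days is a log2 ratio of CPM with 10 CPM added to both sides, which understates the change of low genes. A gene is called higher or lower when this log2 ratio reaches 1, a doubling on that scale, and annotations with at least 50 cells on both days were compared. The background share in each comparison is the percent of 10369 genes at 5 CPM or more over all cells that passed the same fold, and 18 of the 32 genes are among them. All 32 genes are counted below without a filter. The comparisons with day 0 share the day 0 library. A summed level does not tell a smaller number of expressing cells from less RNA per cell.

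Interferons come in families: type I interferons (such as the alpha and beta forms) and type III interferons (lambda) lead to binding of a factor that holds STAT2 and IRF9 at a promoter element called ISRE, whereas interferon gamma, made mainly by T cells and natural killer cells, acts through an element called GAS. The target genes encode proteins that bind viral RNA, tag proteins with ISG15, attack vacuoles that hold microbes, or restrict viruses at membranes. In the gut, the epithelium is a main target of lambda interferon, and interferon gamma rises in many forms of colitis.

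Promoters of the members were read first, because the members were chosen by name and share no rule on sequence. RefSeq promoter windows on build GRCm38.p6, 250 bases before to 50 bases after each start, were matched for 24 of the 32 genes, with 28 windows, and Parp14, Usp18, Gbp6, Ifi27l2a, Rtp4, Iigp1, Oas2 and Zbp1 had none in the table used. The core of ISRE was searched as GAAA, any 2 bases, GAAA, and GAS as TTCNNNGAA, on both strands, with overlapping matches counted. The ISRE repeat was in a window of 15 of 24 members (62.5%) and of 3.99% of all 27025 genes in the table. GAS was in 9 of 24 members (37.5%) and 9.55% of all genes. At least 1 of the motifs was in 17 of 24 members (70.8%) against 12.9% of all genes, and 7 members held both. A match describes letters in a window and shows no binding. The windows of Isg15, Ifit1, Gbp2 and Irf1 are printed because their levels lead the results below; capitals mark the motif matches. Isg15 (chr4:156200769-156201068, minus strand) held 3 overlapping ISRE repeats, Ifit1 (chr19:34640639-34640938, plus strand) held 2, Gbp2 (chr3:142620413-142620712, plus strand) held 1, and the first window of Irf1 (chr11:53769764-53770063, plus strand) held 1 GAS and no ISRE repeat.
Isg15: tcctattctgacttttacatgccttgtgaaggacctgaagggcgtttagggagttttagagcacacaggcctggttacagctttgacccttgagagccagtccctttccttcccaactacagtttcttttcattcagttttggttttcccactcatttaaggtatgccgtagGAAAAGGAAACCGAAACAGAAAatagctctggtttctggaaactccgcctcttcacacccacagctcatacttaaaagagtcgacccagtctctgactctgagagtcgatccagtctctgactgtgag
Ifit1: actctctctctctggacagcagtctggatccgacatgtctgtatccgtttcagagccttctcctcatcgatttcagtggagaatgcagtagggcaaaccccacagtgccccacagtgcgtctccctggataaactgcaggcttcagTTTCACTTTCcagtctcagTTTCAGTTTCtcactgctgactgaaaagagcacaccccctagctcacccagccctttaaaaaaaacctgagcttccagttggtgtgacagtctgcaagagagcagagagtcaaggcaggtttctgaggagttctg
Gbp2: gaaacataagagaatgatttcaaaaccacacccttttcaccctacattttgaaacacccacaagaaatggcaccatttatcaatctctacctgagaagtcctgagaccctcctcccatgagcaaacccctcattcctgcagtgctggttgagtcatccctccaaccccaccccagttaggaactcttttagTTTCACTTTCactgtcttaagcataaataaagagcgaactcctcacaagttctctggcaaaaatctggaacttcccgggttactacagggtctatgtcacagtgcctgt
Irf1: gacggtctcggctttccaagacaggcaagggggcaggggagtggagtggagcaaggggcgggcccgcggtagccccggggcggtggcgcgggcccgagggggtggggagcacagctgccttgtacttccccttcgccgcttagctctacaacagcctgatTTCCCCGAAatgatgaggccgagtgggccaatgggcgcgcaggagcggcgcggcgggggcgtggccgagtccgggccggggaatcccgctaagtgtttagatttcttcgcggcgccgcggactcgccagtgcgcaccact

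Several members are neighbours in the genome (GRCm38). Gbp2, Gbp3, Gbp5 and Gbp7 lie within 144 kb of chromosome 3, and Ifit1, Ifit2 and Ifit3 within 99.3 kb of chromosome 19. Oasl1 and Oasl2, and Oas1a and Oas2, form pairs on chromosome 5. The GBP genes, Oas1a and Ifit3 have near-identical copies, and 7 members (Igtp, Irgm2, Irf9, Gbp6, Gbp7, Rtp4 and Parp14) overlap another annotated gene on the same strand. Reads could be split between such genes, so these values are uncertain wherever they are given below.

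In the untreated tissue most members had their highest level per UMI in endothelial cells, an annotation of 100 cells. Among annotations with at least 50 cells in the library, 21 of the 32 had their highest CPM in endothelial cells, 5 in lymphatics, 3 in macrophages or other antigen presenting cells, 2 in muscle-like cells and 1 in secretory colonocytes, and none in colonocytes, keratinocytes, fibroblasts or T cells. The summed level of 31 members, leaving out Ifitm3, whose UMIs would dominate the sum, was 2633 CPM (2480 to 2792) in endothelial cells and 998 CPM (973.6 to 1022) in fibroblasts. It was 237 CPM (232.5 to 242.1) in colonocytes and 235 CPM (229.5 to 239.8) in keratinocytes, whose intervals overlap. At day 7 the gap between the epithelium of the colon and the blood vessels had narrowed: colonocytes stood at 820 CPM (801 to 839.4) and endothelial cells at 1313 CPM (1268 to 1359). Lymphatics went up instead, from 1067 CPM (930.2 to 1219) at day 0 to 1560 CPM (1474 to 1650) at day 7 and 1814 CPM (1620 to 2026) at day 42. Keratinocytes stood at 87.3 CPM (85.7 to 88.9) at day 7. Much of that drop was Ifi27l2a: without it, the other 30 members summed to 120.5 CPM (116.9 to 124.3), 64.9 CPM (63.5 to 66.3) and 191 CPM (188 to 195) in keratinocytes at days 0, 7 and 42. At day 42 the sums were 464 CPM (450.6 to 477.5) in colonocytes, 1611 CPM (1485 to 1746) in endothelial cells and 228 CPM (224 to 231.8) in keratinocytes. With Ifitm3 included, the keratinocyte sums were 983.5, 1205 and 1744 CPM at days 0, 7 and 42. The endothelial sums were then 4877, 4944 and 5992 CPM, and those of colonocytes 317.7, 1028 and 621.2 CPM. The day 7 fall in keratinocytes and endothelial cells thus depends on leaving Ifitm3 out. With the same limit of 50 cells, lymphatics held the highest level of 14 members at day 7 and 10 at day 42, and neutrophils that of 4 and 11. Colonocytes held the highest level of 8 members at day 7 (Irf7, Ifit1, Ifit2, Ifit3, Oasl1, Oas1a, Irgm1 and Zbp1), of 0 at day 0 and of 1, Oas1a, at day 42. For several of these the next annotation was close, as with Irgm1, which at day 7 was at 21.2 CPM (18.2 to 24.5) in colonocytes and at 18.7 CPM (13.7 to 24.9) in endothelial cells.

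**Figure D1:**
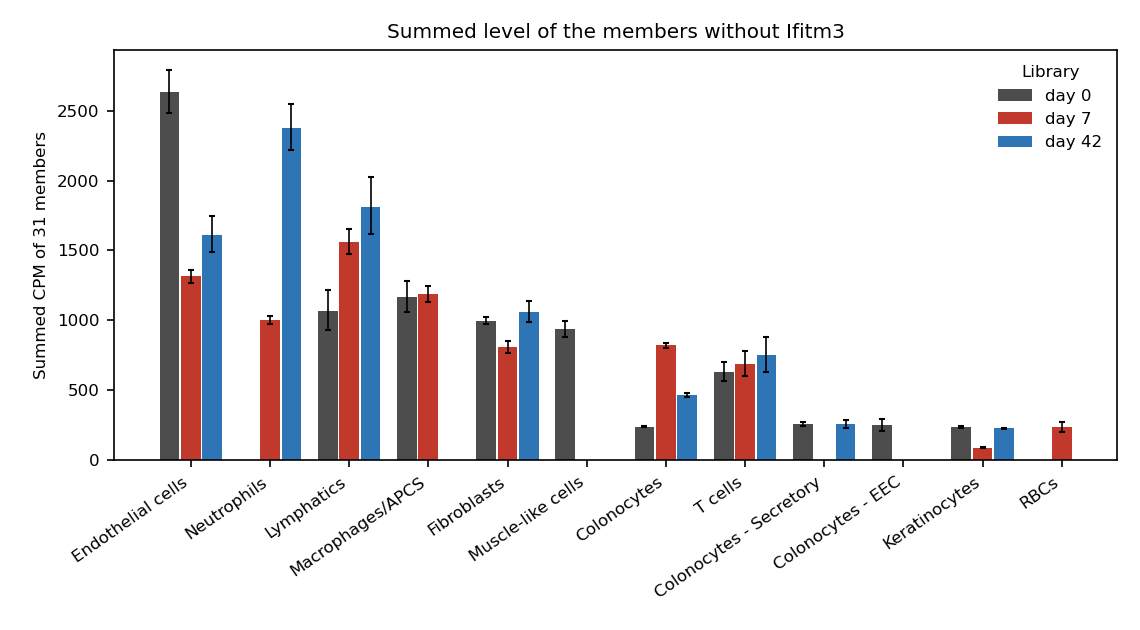
Summed CPM of 31 members (all but Ifitm3) for each annotation and day with at least 50 cells; bars are exact 95% Poisson intervals. Colonocytes move from 237 to 820 and 464 CPM over days 0, 7 and 42, and endothelial cells from 2633 to 1313 and 1611 CPM.

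Colonocytes, the columnar epithelial cells of the colon, showed the broadest increase. At day 7, 12 of the 32 members were higher than at day 0 and 0 were lower, where the background shares were 3.06% higher and 1.87% lower. The median log2 ratio of the members was 0.84 against -0.11 over the background genes, and 30 of 32 ratios were above 0. Among the 55 day 7 colonocytes with no UMI of 7 neutrophil markers, against such cells of day 0, 2 were higher and 3 lower, where 2.27% and 12.3% of the background genes were and 1 UMI is worth 5.49 CPM. The comparison rests on 3749, 1015 and 1489 colonocytes at days 0, 7 and 42, from clusters whose share changed between the libraries: cluster 7 held 68.0%, 11.8% and 48.1% of the colonocyte UMIs in those libraries, and cluster 2 held 32.01%, 79.2% and 51.8%. The number of members at 10 CPM or more was 6 at day 0, 22 at day 7 and 15 at day 42.

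Among the transcription factors, Irf7, which drives interferon production and its amplification, was at 18.5 CPM (17.2 to 19.9) at day 0, 76.8 CPM (71.0 to 82.8) at day 7 and 55.7 CPM (51.2 to 60.6) at day 42. Its log2 ratios were 1.61 at day 7 and 1.21 at day 42, and the 3 intervals do not overlap. Irf1, a factor induced early by interferon gamma, was at 74.0, 85.4 and 78.9 CPM in the same order, with ratios of 0.18 and 0.08, so it stayed within the fold. Stat2 was at 8.19, 13.1 and 9.08 CPM, and Irf9 at 13.8, 17.6 and 19.6 CPM; these partners in the factor that binds ISRE did not pass the fold on either day. Thus 1 of the 4 transcription factors was higher.

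The IFIT genes encode proteins that bind foreign RNA. Ifit1 was at 0.653 CPM (0.427 to 0.957) at day 0, 25.8 CPM (22.5 to 29.5) at day 7 and 8.88 CPM (7.12 to 10.9) at day 42, which is 39.5-fold higher at day 7 (26.3 to 61.9) from 26 and 222 UMIs, and 23.2-fold (14.2 to 40.6) within cluster 2. Ifit2 was at 1.08, 13.7 and 1.62 CPM, with log2 ratios of 1.10 at day 7 and 0.07 at day 42, so its day 42 level was close to that of untreated tissue. Ifit3, at 0.276, 8.26 and 2.12 CPM, had a ratio of 0.83 and stayed under the fold, from 11 UMIs at day 0. Isg15, the ubiquitin-like modifier attached to proteins in infected cells, was at 2.49 CPM (2.02 to 3.03), 66.6 CPM (61.3 to 72.3) and 16.6 CPM (14.1 to 19.3). It was 26.8-fold higher at day 7 (21.6 to 33.5) and 6.65-fold higher at day 42 (5.15 to 8.63), and was called on both days. Within cluster 2 the day 7 fold was 16.4 (12.5 to 21.8). Usp18, the protease that removes ISG15 and dampens the type I receptor, was at 0.854, 5.35 and 1.21 CPM and did not pass the fold.

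The oligoadenylate synthetase family senses double-stranded RNA. Oasl1 was at 7.71, 28.96 and 25.2 CPM, with log2 ratios of 1.14 and 0.99, just past the fold at day 7 and just under it at day 42. Oasl2 was at 1.71, 20.2 and 8.98 CPM, with ratios of 1.37 and 0.70. Oas1a (9.52, 24.2 and 15.1 CPM) stayed under the fold, and Oas2 had 0, 6 and 3 UMIs, at or near the limit of detection.

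GBP and IRG proteins are GTPases that coat the vacuoles of intracellular microbes and are classical targets of interferon gamma. Gbp2 had the largest ratio of the 32 at day 7. It was at 5.45 CPM (4.75 to 6.23) at day 0, 129 CPM (121.9 to 137.3) at day 7 and 31.9 CPM (28.5 to 35.6) at day 42, with log2 ratios of 3.17 and 1.44. Day 7 was 23.7-fold above day 0 (20.5 to 27.6), and day 42 was 5.85-fold above it (4.91 to 6.99). Within cluster 2 these folds were 11.9 (10.1 to 14.1) and 4.54 (3.75 to 5.52). The other GBP genes stayed under the fold on both days: Gbp7 had a ratio of 0.86 at day 7 and Gbp3 of 0.93, while Gbp5 and Gbp6 were below 5 CPM in all 3 libraries. Among the IRG genes, Iigp1 was at 3.64, 21.98 and 4.24 CPM, with ratios of 1.23 and 0.06, and Igtp at 8.14, 26.3 and 10.1 CPM, with a ratio at the fold for day 7 and of 0.15 for day 42. Both were near their untreated level at day 42. Irgm1 (14.8, 21.2 and 12.3 CPM) and Irgm2 (6.41, 10.1 and 8.58 CPM) did not pass.

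Of the other effectors, Zbp1, a sensor of Z-form nucleic acid that can start cell death, was at 4.32 CPM (3.70 to 5.02), 72.0 CPM (66.4 to 77.9) and 47.3 CPM (43.1 to 51.8). Its log2 ratios were 2.52 at day 7 and 2.00 at day 42, so most of the day 7 change was still there at day 42. Ifitm3, which blocks virus entry at endosomes and has the most UMIs of the members in colonocytes, was at 80.4, 208 and 157 CPM, with ratios of 1.27 and 0.89. Parp14, an ADP-ribosyltransferase (18.1, 46.1 and 36.2 CPM), Rtp4 (2.64, 15.0 and 13.5 CPM) and Xaf1 (3.32, 13.7 and 6.76 CPM) were under the fold at day 7, as were Rsad2 (1.56, 7.44 and 4.84 CPM) and Ifi44 (0.402, 2.44 and 0.807 CPM). The smallest ratios were those of Bst2, which tethers budding virus (9.90, 9.77 and 11.9 CPM), and of Ifi27l2a, a small mitochondrial protein (9.04, 3.72 and 4.44 CPM, ratio -0.47 at day 7). Cd274, which encodes the checkpoint ligand PD-L1, was at 1.51, 15.9 and 5.55 CPM, with ratios of 1.17 and 0.43.

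At day 42, 4 members were still called higher than at day 0 in colonocytes (Gbp2, Isg15, Zbp1 and Irf7) and 0 lower, where the background shares were 0.945% higher and 0.366% lower. The members' median log2 ratio was 0.30 against -0.03 over the background genes. Set against day 7 directly, 4 members were lower at day 42 and 0 higher; they were Gbp2 (-1.74), Isg15 (-1.53), Iigp1 (-1.17) and Ifit2 (-1.03). The background shares there were 1.13% lower and 0.800% higher. Zbp1 and Irf7 were not among them, at -0.52 and -0.40.

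**Figure D2:**
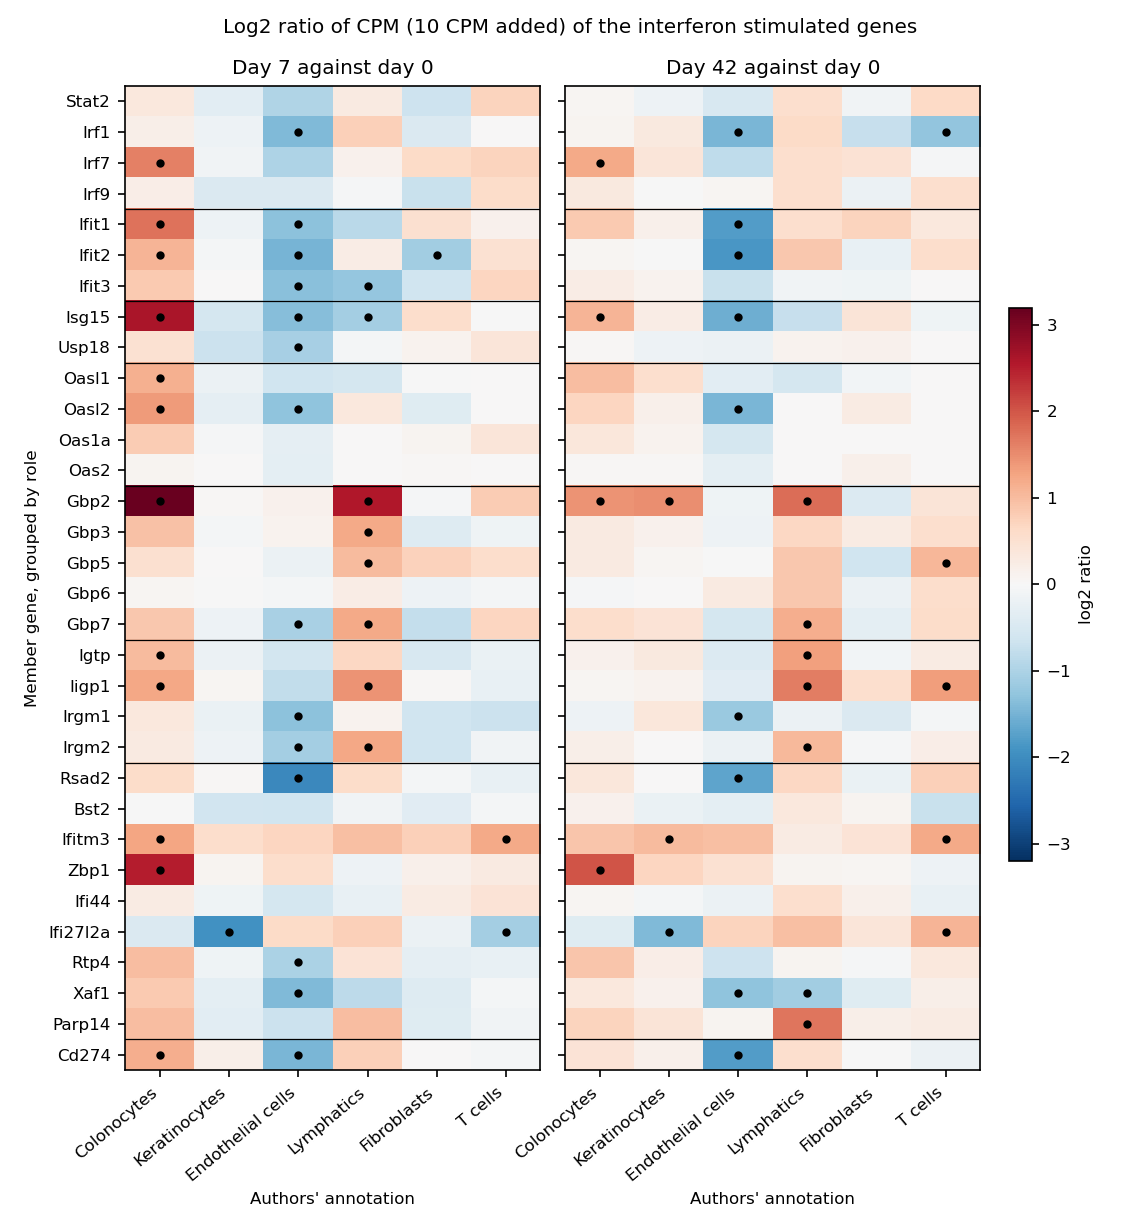
Log2 ratio (10 CPM added) of each of the 32 members, day 7 against day 0 and day 42 against day 0, in 6 annotations; black dots mark ratios past the fold. At day 7 the colonocyte column carries 12 dots for higher levels and the endothelial column 14 for lower levels.

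**Figure D3:**
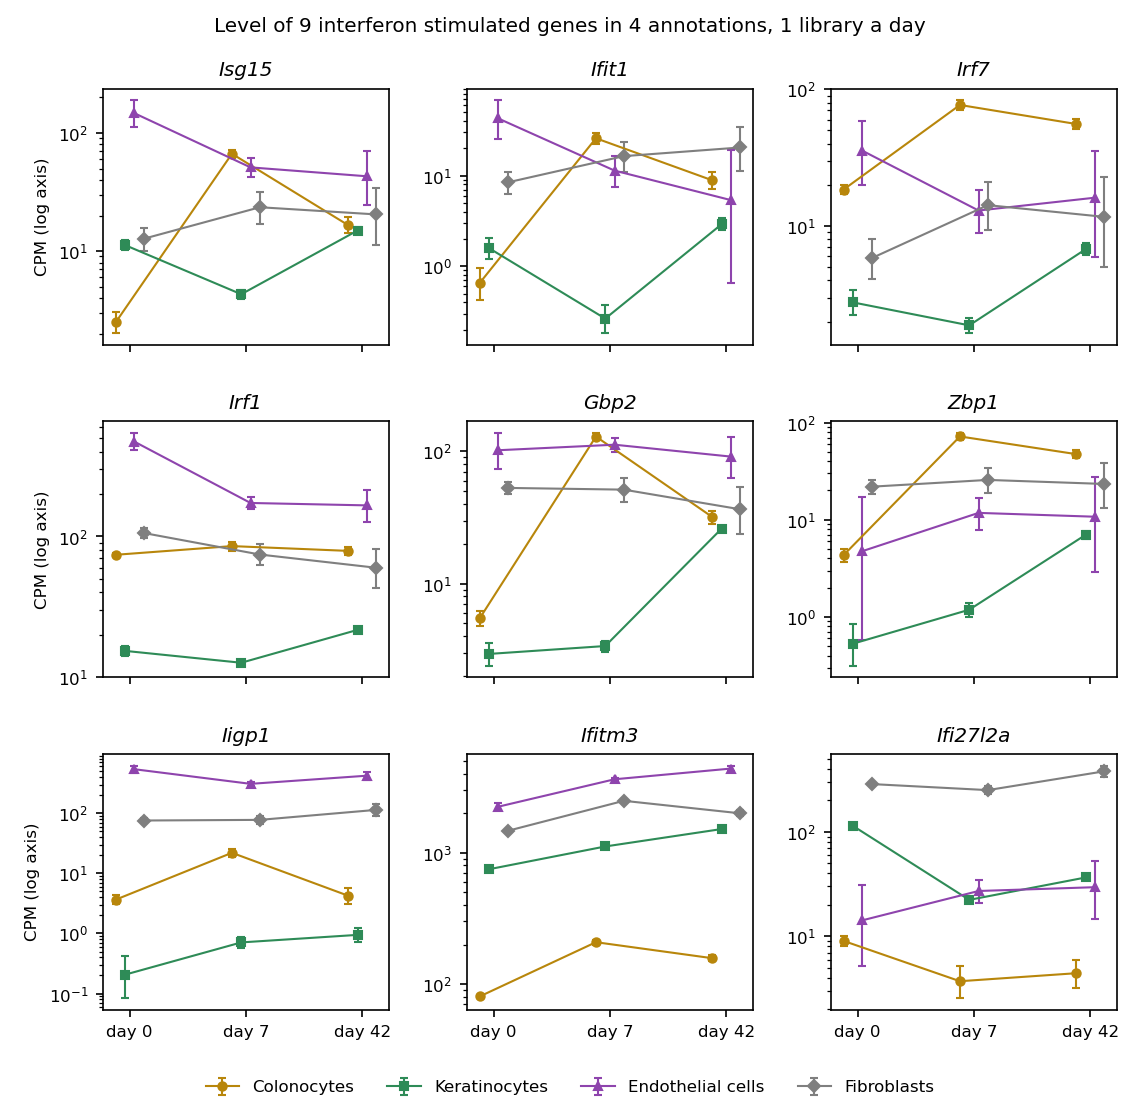
CPM on a log axis of 9 members by day in colonocytes, keratinocytes, endothelial cells and fibroblasts; bars are exact 95% Poisson intervals. In colonocytes Isg15 goes from 2.49 to 66.6 and 16.6 CPM, while Irf1 stays between 74.0 and 85.4 CPM.

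The 3 clusters that make up the colonocyte annotation changed in share between the libraries. Cluster 2 held 1936, 703 and 1072 cells at days 0, 7 and 42, cluster 7 held 1809, 33 and 412, and cluster 22 held 4, 279 and 5. Within cluster 2, 9 members were higher at day 7 and 0 lower (2.025% and 0.7233% of the background genes), and 7 were higher at day 42 (1.022%). In that cluster Isg15 was at 4.71, 77.1 and 24.5 CPM, Gbp2 at 13.1, 156 and 59.6 CPM, and Zbp1 at 9.03, 83.7 and 87.4 CPM. Zbp1 was as high at day 42 as at day 7 there. Irf7 was at 43.9, 91.6 and 100.5 CPM and Oasl1 at 21.8, 34.7 and 47.1 CPM, with day 7 ratios of 0.92 and 0.49. Both calls made over all colonocytes at day 7 were thus lost within cluster 2, where both genes were higher at day 0 than over all colonocytes. Irf1 in cluster 2 was level, at 102, 95.02 and 101 CPM. Without cluster 22, 10 members were higher at day 7, a count with no background share beside it.

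**Figure D4:**
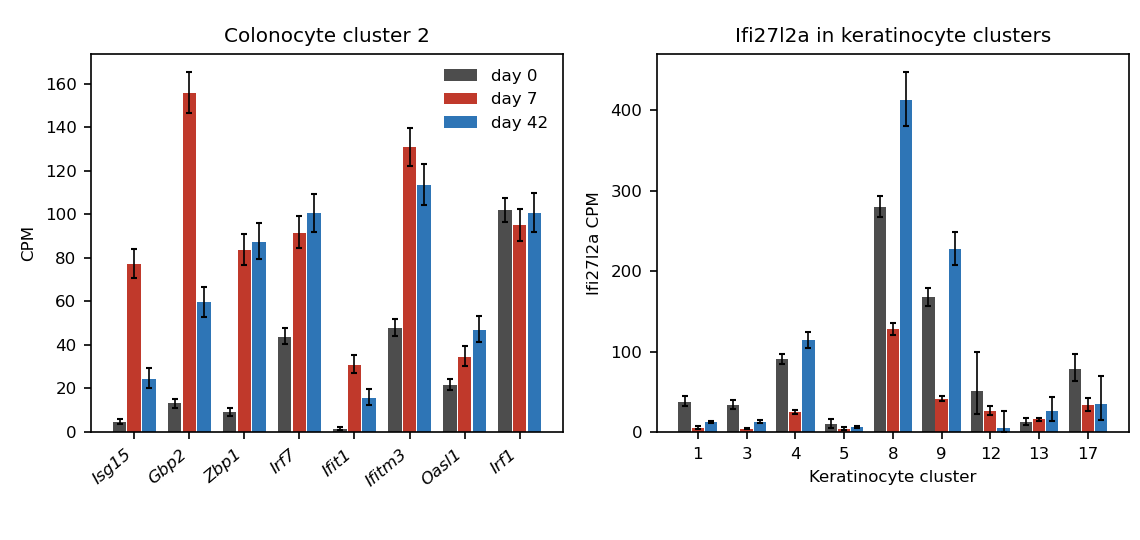
Left, CPM of 8 members by day in colonocyte cluster 2, with exact 95% Poisson intervals; right, CPM of Ifi27l2a by day in 9 keratinocyte clusters. In cluster 2, Zbp1 is at 9.03, 83.7 and 87.4 CPM; Ifi27l2a is lower at day 7 than at day 0 in 8 of the 9 keratinocyte clusters.

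Single cells showed how many colonocytes carried member RNA. To compare cells at 1 depth, each cell was thinned to 1000 UMIs, which kept 3709, 983 and 1370 colonocytes. At least 1 of 30 members (all but Ifitm3 and Irf1) was seen in 14.5% of the day 0 cells (13.4 to 15.7, exact binomial 95% limits), 33.8% of the day 7 cells (30.8 to 36.8) and 32.6% of the day 42 cells (30.1 to 35.1). At least 4 members were seen in 0.135%, 2.44% and 1.68%. By this measure days 7 and 42 overlap, although the summed CPM was lower at day 42. For Isg15 alone the thinned share was 0.270%, 4.27% and 2.04%, and the unthinned share 2.16%, 14.2% and 5.84%. Keratinocytes gave 1.13%, 0.770% and 1.47% for Isg15 after thinning, with median depths of 9168, 11481 and 6542 UMIs against 9679, 4027 and 5879 in colonocytes. The day 0 share of colonocytes was thus below the keratinocyte share, and whether free RNA in the droplets gave it was not tested. The folds over day 0 printed for Isg15 rest on that low level.

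For several members few cells held most of the RNA. At day 7 the 10 colonocytes with most UMIs of a gene held 55.2% of its UMIs for Isg15, 54.5% for Gbp2, 75.2% for Ifit1 and 79.4% for Iigp1. The concentration was weaker for Zbp1 (18.9%), Irf7 (18.2%) and Ifitm3 (22.2%). Leaving out, for each gene and library, the 10 cells with most UMIs gave 6 higher members in place of 12 (Gbp2, Zbp1, Isg15, Irf7, Ifitm3 and Oasl2), and leaving out 10% of the cells gave 3 (Zbp1, Ifitm3 and Irf7). No background share is given for these steps, so whether all genes moved alike is not shown. Some members were seen together in cells: after thinning, 14 of 42 day 7 colonocytes with an Isg15 UMI also had Gbp2 (33.3%), against 36 of 941 without (3.83%). For Ifit1 the shares were 14.3% and 1.06%, for Iigp1 14.3% and 0.531%, and for Zbp1 33.3% and 6.06%. For Ifitm3 they were 11.9% (3.98 to 25.6) and 21.4% (18.8 to 24.1), with overlapping limits. These are shares of cells of 1 library and are given as a description.

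**Figure D5:**
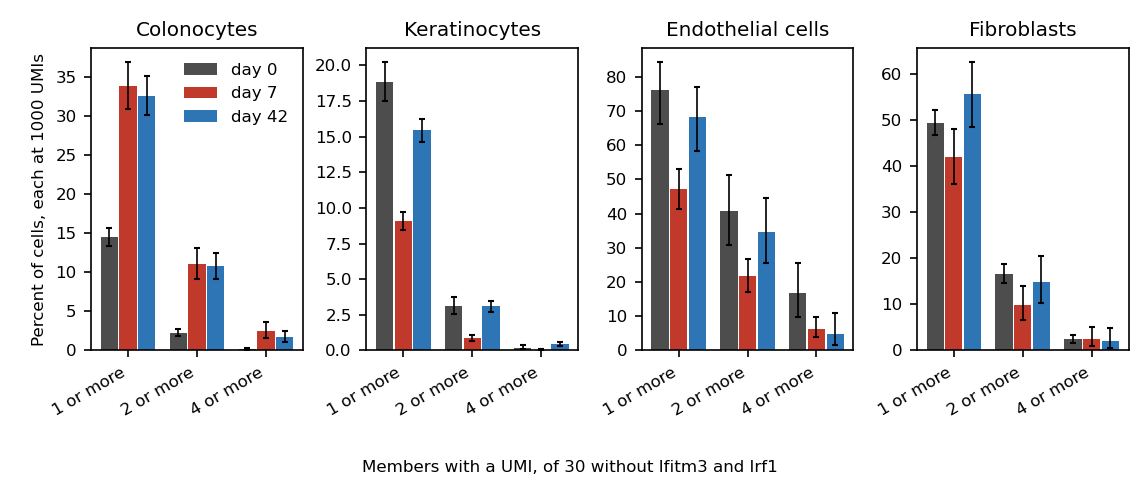
Percent of cells, each thinned to 1000 UMIs, with a UMI of at least 1, 2 or 4 of 30 members, by day; bars are exact 95% binomial intervals and the y scale differs between panels. In colonocytes the share with at least 1 member is 14.5%, 33.8% and 32.6% at days 0, 7 and 42; in endothelial cells it is 76.0%, 47.2% and 68.3%.

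Other measures moved with the colonocyte result. The summed level of 7 neutrophil markers in colonocytes was 85.0, 3563 and 458 CPM at days 0, 7 and 42; 5 of the 7 had a UMI at day 0, with Csf3r and Mmp8 at 0, and all 7 had one at the later times. In annotations other than neutrophils with at least 50 cells in the library, these markers summed to 0 to 85.0 CPM at day 0, 414.7 to 4786 CPM at day 7 and 135.2 to 457.8 CPM at day 42. Among colonocytes with no UMI of Ptprc, Cd3e, Trac, Lyz2, Csf1r, C1qa and Cd79a, none of them among the 7 neutrophil markers, 11 members were higher at day 7 and 4 at day 42. Those counts have no background share beside them. The neutrophil markers were then used directly, in a pair of steps chosen after seeing the data. With colonocytes that had no UMI of the 7 markers, 2 members (Irf7 and Parp14) were higher at day 7 and 3 (Irf1, Irf9 and Irgm1) lower, in place of 12 and 0, beside 2.27% and 12.3% of the background genes. The median log2 ratio there was -0.05, and Gbp2, Isg15 and Zbp1 were at 0.79, 0.85 and 0.71. Only 55 of the 1015 day 7 colonocytes met that rule, with 52 UMIs of the members and a median depth of 1967 UMIs, beside 4027 over all of them. At day 42 the rule kept 690 cells and 2 higher members, Gbp2 and Zbp1, beside 0.424% of the background genes. With the colonocytes at or below the median neutrophil share of their library, 508 cells at day 7 whose markers summed to 801 CPM, 11 members were higher and 0 lower at day 7, beside 3.05% and 2.12% of the background genes. Gbp2 was at 3.10 there, Isg15 at 2.52 and Zbp1 at 2.31. At day 42, 1 member, Gbp2, was higher, beside 0.617%. The day 0 cells were the same 2691 under both rules, with no marker UMI, of which 1723 were in cluster 7, beside 32 of the 508 day 7 cells. The 10 colonocyte markers summed to 15778, 25395 and 21403 CPM in colonocytes, and 10 keratinocyte markers to 984.5, 2820 and 2244 CPM. The median share of mitochondrial UMIs per colonocyte was 16.3%, 10.5% and 11.8%. The part of neutrophil RNA, depth and mitochondrial share in the result was not tested, since the steps on neutrophil markers change depth and the mix of clusters along with the marker level.

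Endothelial cells, which line blood vessels, went the other way. At day 7, 14 of 32 members were lower than at day 0 and 0 higher, where the background shares were 3.98% lower and 4.57% higher. At day 42, 9 were lower and 0 higher, beside 4.80% and 5.01% of the background genes. The members' median log2 ratio was -0.88 at day 7 against 0.01 over the background genes, with 27 of 32 below 0, and -0.40 against 0 at day 42. The annotation held 100, 312 and 122 cells and 421590, 2465781 and 372324 UMIs, so many day 0 and day 42 values rest on under 30 UMIs.

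Irf1 was the best counted of the lower genes, at 474 CPM (410.9 to 544.9) at day 0, 173 CPM (157.1 to 190.4) at day 7 and 167 CPM (127.7 to 213.5) at day 42, from 200, 427 and 62 UMIs. Its log2 ratios were -1.40 and -1.46, and the later levels did not differ beyond their intervals. Isg15 was at 147 CPM (112.8 to 188.5), 51.1 CPM (42.6 to 60.8) and 43.0 CPM (24.6 to 69.8), with ratios of -1.36 and -1.57. Both genes were thus below their untreated level in each later library. All 3 IFIT genes were lower at day 7, with ratios of -1.30 for Ifit1, -1.49 for Ifit2 and -1.33 for Ifit3. Ifit2 had 11, 7 and 0 UMIs, so against a floor of 3 UMIs its day 42 level was at least 3.24-fold lower than at day 0.

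Rsad2, which encodes viperin, a maker of a chain-terminating nucleotide, was at 56.9, 6.08 and 10.7 CPM, with ratios of -2.06 and -1.69. Cd274 was at 52.2, 12.6 and 8.06 CPM (-1.46 and -1.78), and Xaf1, a pro-apoptotic protein, at 66.4, 18.7 and 21.5 CPM (-1.42 and -1.28). Oasl2, at 54.6, 16.6 and 13.4 CPM, and Irgm1, at 61.7, 18.7 and 21.5 CPM, were lower on both days as well. Gbp7 (152, 68.5 and 99.4 CPM), Irgm2, Usp18 and Rtp4 were called lower at day 7 only, with ratios of -1.04, -1.09, -1.05 and -1.01, all near the fold. The ratio at day 42 for Irgm2 was -0.19. Ifit1, at 42.7, 11.4 and 5.37 CPM, was also lower at day 42 (-1.78), from 18, 28 and 2 UMIs.

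Of the 18 members not called at day 7, most also had ratios below 0. Gbp2 was level, at 102, 112 and 91.3 CPM with overlapping intervals, and the ratios of Gbp3 and Gbp5 were within the fold. Ifitm3 was at 2244, 3631 and 4381 CPM, with ratios of 0.69 and 0.96, higher in both later libraries but under the fold. Lower in both later libraries without passing the fold was Iigp1, an IRG GTPase, at 541, 309 and 422 CPM (-0.79 and -0.35), and so was Bst2 at 263, 165 and 210 CPM. Irf7 was just under the fold at day 7 (35.6, 12.98 and 16.1 CPM, -0.99). Igtp, at 54.6, 32.9 and 37.6 CPM, was lower but did not pass, nor did Zbp1, with 2, 29 and 4 UMIs, or Ifi27l2a, with 6, 67 and 11 UMIs. Of the 12 lower members with a promoter window at day 7, 9 held an ISRE repeat or GAS, as did 8 of the 12 members with a window that were not called. Of the 10 higher members with a window in colonocytes, 6 did, and of the 14 not called, 11 did. Irf7, Oasl1, Oasl2 and Cd274 were the 4 colonocyte genes with neither.

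The endothelial counts depend on few cells. Without the 10 cells with most UMIs of each gene in each library, 3 members were lower at day 7 in place of 14 (Irf1, Rsad2 and Xaf1), and 9 were lower at day 42. Since the day 0 library has 100 endothelial cells, that step leaves out a larger share of it than of the 312 cells of day 7. Without the top 10% of cells of each library, 9 were lower at day 7 and 10 at day 42. The counts of these steps have no background share beside them. The share of thinned endothelial cells with at least 1 of 30 members was 76.0% (66.3 to 84.2), 47.2% (41.4 to 53.0) and 68.3% (58.4 to 77.1), so day 42 overlaps day 0 by that measure. With at least 4 members it was 16.7%, 6.36% and 4.81%. Genes of the dissociation stress response moved too: 12 of them, chosen after their values were seen, summed to 19718, 7280 and 10502 CPM in endothelial cells and 10215, 6734 and 8454 CPM in colonocytes. In fibroblasts they summed to 11264, 6013 and 4076 CPM. They did not fall at day 7 in keratinocytes (2116, 2261 and 3585 CPM) or T cells (6159, 6246 and 4796 CPM). The part of these genes in the result was not tested. The 7 endothelial markers summed to 6056, 4664 and 4072 CPM, each marker with a UMI in all 3 libraries.

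Lymphatics, the endothelium of lymph vessels, differed from blood endothelium in the GTPase genes. Of 32 members, 6 were higher at day 7 and 2 lower, where the background shares were 5.83% and 3.71%, and 6 were higher and 1 lower at day 42, beside 7.25% and 5.82%. The annotation held 63, 190 and 84 cells. At day 0, 23 of the 32 members had under 10 UMIs there and 11 had 0 or 1, so many ratios rest on few molecules. Gbp2 was at 14.7, 136 and 74.9 CPM (3, 107 and 13 UMIs), with ratios of 2.56 and 1.78. Iigp1 was at 108, 311 and 357 CPM, with ratios of 1.45 and 1.64, and Gbp7 at 63.6, 161 and 156 CPM, with ratios of 1.22 and 1.17. The 6 higher genes at day 7 were GBP or IRG GTPases without exception (Gbp2, Gbp3, Gbp5, Gbp7, Iigp1 and Irgm2), and the lower ones were Isg15 (122, 52.1 and 69.1 CPM, -1.09) and Ifit3. Of these 6 genes, 5 have a promoter window, and all 5 held a motif, as did 10 of the 17 members with a window that were not called and 17 of 24 over all members. At day 42, Parp14 and Igtp were also higher (1.70 and 1.30), and Xaf1 was lower (-1.10). The 5 lymphatic markers summed to 24520, 38736 and 23818 CPM.

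Keratinocytes, the cells of stratified epithelium, had low levels of most members. At day 7, 0 were higher and 1 lower, where the background shares were 1.12% and 0.916%, and at day 42, 2 were higher and 1 lower, beside 2.23% and 1.90%. The members' median ratio was -0.15 at day 7 and 0.14 at day 42, against -0.02 and -0.04 over the background genes. The annotation held 3316, 9035 and 7970 cells, and 7, 3 and 9 members reached 10 CPM. Its clusters also changed in share. Of the keratinocytes, cluster 5 held 2.62%, 1.79% and 27.01% at days 0, 7 and 42, cluster 1 held 13.4%, 6.23% and 38.2%, cluster 12 held 1.54%, 18.5% and 1.91%, and cluster 3 held 8.11%, 21.9% and 12.2%.

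Ifi27l2a was the gene lower at both times over the keratinocytes as a whole, at 114, 22.3 and 36.6 CPM, with log2 ratios of -1.94 and -1.41. Of 9 keratinocyte clusters with at least 50 cells in each library, it was below day 0 in 8 at day 7, past the fold in 6. At day 42 it was above day 0 in 4 of the 9 and past the fold downward in 2. In cluster 8 it was at 280, 128 and 413 CPM, and in cluster 9 at 168, 41.5 and 227 CPM, so these clusters were above their day 0 level at day 42. With each cluster weighted equally, the day 42 ratio was 0.14 in place of -1.41.

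Gbp2 in keratinocytes was at 2.94, 3.38 and 26.0 CPM, with ratios of 0.05 at day 7 and 1.48 at day 42. At day 7 it was above day 0 in 6 of 9 clusters, past the fold in 1 (1.22). At day 42 it was above day 0 in 9 of 9 clusters and past the fold in 4. Ifitm3 was at 749, 1117 and 1516 CPM, with ratios of 0.57 and 1.01. It was above day 0 in 9 of 9 clusters at both times, past the fold in 3 at day 7 (up to 2.08) and in 2 at day 42. The 7 neutrophil markers summed to 25.1, 1576 and 189 CPM in keratinocytes, and their part in these values was not tested. Isg15 was at 11.2, 4.31 and 14.9 CPM and Usp18 at 12.8, 4.10 and 10.5 CPM, both lowest at day 7 but within the fold over all keratinocytes; Isg15 was past it upward in 1 cluster at day 7 (1.51). Irf1 (15.3, 12.6 and 21.6 CPM) and Bst2 (14.6, 6.10 and 11.2 CPM) also stayed within it. Irf7, Ifit1, Igtp, Zbp1 and Cd274 were below 7 CPM in each library. Over single clusters, 4 members were past the fold upward in at least 1 of the 9 at day 7 (Irf1, Isg15, Gbp2 and Ifitm3) and 3 downward (Usp18, Ifi27l2a and Xaf1), where 17.9% and 7.10% of the background genes were. At day 42 it was 10 upward and 2 downward, beside 14.9% and 12.5%. After thinning, 18.8%, 9.08% and 15.5% of keratinocytes had at least 1 of the 30 members other than Ifitm3 and Irf1. Ifi27l2a, which is among these 30, was seen in 10.5%, 2.88% and 3.72% of the same cells. Set against day 7, 1 member (Gbp2, 1.43) was higher at day 42 over all keratinocytes and 0 lower, beside background shares of 1.61% and 1.35%, and 30 of 32 ratios were above 0. The clusters were uneven in this comparison: 7 members were higher in cluster 8 and 8 in cluster 9, where 0.260% and 0.424% of the background genes were, and 0 were lower in either, beside 0.482% and 0.559%. In each of the other 7 clusters 0 to 4 were higher and 0 or 1 lower.

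Fibroblasts, the matrix-forming cells of connective tissue, had 0 members higher and 1 lower at day 7, where the background shares were 2.04% and 1.60%, and 0 in either direction at day 42, beside 1.40% and 0.858%. The lower gene was Ifit2, at 25.9, 6.56 and 20.4 CPM (169, 12 and 14 UMIs), with a ratio of -1.11 at day 7. Iigp1 was at 75.7, 77.6 and 114 CPM, Ifi27l2a at 287, 250.8 and 379 CPM and Ifitm3 at 1468, 2489 and 1998 CPM, none past the fold. Irf1 was at 106, 74.3 and 59.8 CPM, Gbp2 at 52.9, 51.4 and 36.5 CPM and Bst2 at 66.1, 49.2 and 71.5 CPM. These levels all lay above those of keratinocytes, and none passed the fold. Isg15 was at 12.7, 23.5 and 20.4 CPM, Ifit1 at 8.42, 16.4 and 20.4 CPM and Irf7 at 5.81, 14.2 and 11.7 CPM, higher in both later libraries but under the fold. Zbp1 (21.9, 25.7 and 23.4 CPM), Igtp (19.3, 10.4 and 17.5 CPM) and Cd274 (3.06, 3.28 and 2.92 CPM) did not pass. The median ratio of the members was -0.17 at day 7 and -0.02 at day 42.

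T cells, of which there were 219, 118 and 121, had 1 member higher and 1 lower at day 7 (background 2.81% and 3.31%) and 4 higher and 1 lower at day 42 (background 3.28% and 5.32%). Ifitm3 was at 50.7, 130 and 130 CPM, with ratios of 1.20 and 1.21. In the same cells the 7 neutrophil markers summed to 36.2, 4474 and 436.4 CPM and the 10 keratinocyte markers to 784, 2463 and 1846 CPM. Neutrophils and keratinocytes at day 7 held Ifitm3 at 1955 and 1117 CPM, and the part of their RNA in the T cell value was not tested. Ifi27l2a was at 56.1, 21.1 and 130 CPM, lower at day 7 (-1.09) and higher at day 42 (1.09). Irf1, at 97.7, 99.5 and 35.1 CPM, was lower at day 42 (-1.26), from 54, 33 and 7 UMIs. Isg15 was level, at 88.7, 87.4 and 80.3 CPM. Bst2 (79.6, 75.4 and 45.2 CPM), Gbp2 (19.9, 42.2 and 30.1 CPM), Igtp (39.8, 33.2 and 50.2 CPM) and Cd274 (41.6, 39.2 and 35.1 CPM) stayed within the fold. Zbp1 had 10, 8 and 3 UMIs, Irf7 3, 5 and 1, and Ifit1 1 in each library, too few to follow. The remaining T cell calls, Iigp1 and Gbp5 at day 42, rest on 4 and 6 UMIs.

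Macrophages and other antigen presenting cells, compared at day 7 only with 91 and 278 cells, had 3 members higher and 1 lower, beside background shares of 3.09% and 4.93%. They were Gbp5, which promotes inflammasome activity (7.62 and 44.5 CPM, 1.63), Ifitm3 (900 and 2669 CPM, 1.56) and Isg15 (48.3 and 144 CPM, 1.40). Igtp was lower, at 33.0 and 3.77 CPM (-1.64), from 13 and 5 UMIs. In these cells the neutrophil markers went from 27.95 to 4786 CPM and Ifitm1 from 12.7 to 1828 CPM (5 and 2425 UMIs), while the 9 macrophage markers went from 16565 to 11425 CPM. Day 7 neutrophils held Ifitm3 at 1955 CPM and Isg15 at 177 CPM, and the part of neutrophil RNA in these calls was not tested. Secretory colonocytes, compared at day 42 only with 479 and 179 cells, had 1 member higher and 0 lower, beside 1.26% and 0.386%; it was Ifitm3, at 66.0 and 157 CPM (1.14).

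Neutrophils, first responders of acute inflammation, numbered 5 at day 0, 1513 at day 7 and 448 at day 42, so day 42 was compared with day 7. Of the 32 members, 9 were higher at day 42 and 0 lower, where the background shares were 2.87% and 1.09%, and the members' median ratio was 0.41 against 0.07. Isg15 was at 177 and 757 CPM (2.03), the highest Isg15 level of any annotation and day with 50 cells or more. Rsad2 was at 12.9 and 158 CPM (2.88), from 54 and 53 UMIs. Ifi27l2a (74.5 and 250.2 CPM), Rtp4 (47.6 and 152 CPM), Irf7 (30.2 and 77.4 CPM), Ifit1 (6.67 and 41.7 CPM) and Oasl2 (69.3 and 161 CPM) were also higher. The GBP and IRG genes of neutrophils did not pass the fold; Gbp2 was at 93.8 and 80.4 CPM. Median depth was 2585 UMIs at day 7 and 662 at day 42, and the part of that depth in the result was not tested.

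The genes upstream of the members gave few UMIs. Ifng, which encodes interferon gamma, had 94, 11 and 47 UMIs in the 3 libraries, of which 92, 9 and 47 were in T cells, at 166.5, 27.1 and 235.8 CPM. It was thus lowest in the day 7 library. The genes for interferon beta, interferon lambda (Ifnl2 and Ifnl3) and 11 alpha interferons had 0 UMIs in each library, which at this depth allows up to 3 UMIs per library. Ifnk and Ifne, interferons of surface epithelia, had 0, 5 and 1 and 1, 6 and 7 UMIs, nearly all in keratinocytes.

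Of the 6 interferon receptor genes listed, 0 passed the fold in colonocytes on either day, where 3.06% and 1.87% of the background genes were higher and lower at the first time and 0.945% and 0.366% at the second. At those shares a list of 6 genes holds under 1 call on average. Ifngr1, a chain of the interferon gamma receptor, was at 163, 256 and 184 CPM, and Ifngr2, the other chain, at 114, 150.4 and 136 CPM. Ifnlr1, the specific chain of the lambda receptor, was at 5.10, 6.75 and 5.25 CPM and its partner Il10rb at 35.9, 61.3 and 47.5 CPM. Ifnar1 and Ifnar2, the type I receptor, were at 14.5, 13.8 and 13.8 CPM and at 3.77, 4.30 and 3.03 CPM. None of these levels passed the fold between days. Of 8 inhibitors, 1 was higher in colonocytes at day 7, beside 3.06% of the background genes, and 1 lower, beside 1.87%. Socs3 was the higher one (21.2, 70.2 and 15.2 CPM, 1.36) and Socs2 the lower one (55.0, 20.6 and 32.6 CPM, -1.09). In endothelial cells Il10rb, a receptor chain for lambda interferon, was lower at both times (106.7, 30.01 and 45.7 CPM), and Socs1 was lower at day 7 (47.4, 10.1 and 18.8 CPM). There 3.98% of the background genes were lower at day 7 and 4.80% at day 42. Of 15 sensors and adaptors, 0 passed in colonocytes, where the same shares give under 1 call among 15 genes, and in endothelial cells 3 (Ifih1, Mavs and Tbk1) were lower at day 42, beside 4.80% of the background genes. Elsewhere single genes of these lists passed: Socs2 was higher in keratinocytes at day 42, Socs3 was lower in fibroblasts at day 42 and higher in T cells at day 7, Irf8 was lower in fibroblasts at day 7 and Mb21d1 was lower in T cells at day 42. The background shares in that order were 2.23%, 0.858%, 2.81%, 1.6% and 5.32%, each of which gives under 1 call for its list.

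A list of 65 further interferon stimulated genes, of which 61 were matched, gave 9 higher and 0 lower in colonocytes at day 7 (background 3.06% and 1.87%) and 1 higher at day 42 (background 0.945%). Ifit1bl1, an IFIT relative, was at 39.0, 266 and 165 CPM and was called on both days. Ido1, which degrades tryptophan, had 0 UMIs at day 0 and stood at 24.8 and 2.12 CPM later, at least 329-fold and 28.1-fold higher against a floor of 3 UMIs. Ifitm1 was at 3.94, 91.3 and 17.1 CPM. The chemokine gene Cxcl10 did not pass there, at 12.9, 9.65 and 15.2 CPM, and Cxcl9 had 3, 26 and 13 UMIs. In endothelial cells the list was mixed, with 4 higher and 7 lower at day 7 (background 4.57% and 3.98%) and 6 higher and 6 lower at day 42 (background 5.01% and 4.80%). Cxcl9 (0, 69.8 and 72.5 CPM) and Cxcl10 (83.0, 245 and 223 CPM) were higher there while Cmpk2 and Gbp9 were lower. Keratinocytes had 1 higher at day 7 (background 1.12%) and 4 at day 42 (background 2.23%), among them Ifi204, a DNA-sensing family member (1.12, 9.11 and 61.7 CPM); the others were Ifi209, Samhd1 and Ifitm1, of which Ifitm1 was also the day 7 gene. In fibroblasts 2 were higher at day 7 (Ifi205 and Ifitm1, background 2.04%), and at day 42 Cxcl9 and Ifitm1 were higher (background 1.40%) and Cxcl10 lower (background 0.858%). T cells had 4 higher and 2 lower at day 7 (background 2.81% and 3.31%) and 7 higher and 3 lower at day 42 (background 3.28% and 5.32%), with Ifi47, Ifitm1 and Ifitm2 among the higher on both days. For 61 genes the background share comes to 2.02 and 3.25 lower genes in T cells at days 7 and 42, so those counts of 2 and 3 are at background. It comes to 0.683 higher genes in keratinocytes and 1.24 in fibroblasts at day 7, beside counts of 1 and 2. Neutrophils held Ifitm1 at 9014 CPM and Ifitm2 at 6096 CPM in the day 7 library, and 8570 and 6273 CPM in the day 42 library. Among the other annotations with at least 50 cells, neutrophil markers were higher at day 7 than at day 0, in T cells at 36.2, 4474 and 436.4 CPM. The part of neutrophil RNA in the Ifitm1 and Ifitm2 values was not tested.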

How the data were processed

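The authors deposited 1 sparse matrix of UMI counts for the 3 libraries with tables of its genes and cells. Cell Ranger 3.0.2 and build mm10 are named in the submitters' processing notes; annotation release, strand setting, cell filters and annotation method are not given in the sources used here. The cell table deposited by the authors also holds a size factor, a ratio that equals each cell's UMIs divided by 5283, and it was not used to scale. Counts were summed per annotation or cluster and day, divided by their total and multiplied by 1000000. Log2 ratios had 10 CPM added. Poisson and Clopper-Pearson 95% intervals came from scipy 1.17.1; other steps used numpy 2.4.6 and pandas 2.3.3 in Python 3.11.15. The counting and fold rules were tested on simulated data. Members named were up to 5 past the fold in each direction, annotation and day, and in each of 5 annotations Isg15, Ifit1, Irf7, Irf1, Gbp2, Igtp, Ifitm3, Bst2, Ifi27l2a, Zbp1 and Cd274; others were chosen after their values were seen. Members and lists were chosen with earlier results of these data known. Doublets were kept; Scrublet in scanpy 1.11.5 marked 3.80%, 0% and 2.29% of cells by its own threshold and so did not work at day 7, and the 5% of cells with the highest scores were left out as an alternative. Other alternatives were pseudocounts of 1 and 50, median-of-ratios size factors, mean CPM per cell, equal cluster weights, a cell filter (1000 UMIs, 500 genes, at most 20% mitochondrial UMIs), no filter on low background genes, and leaving out immune-marked cells (any UMI of 7 genes, no neutrophil marker among them), neutrophil-marked colonocytes, top cells or single clusters. The kinase and STAT list is not reported here.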

Additional observations from a re-analysis of the deposited data

Results flagged for a closer look

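A few members passed the fold in opposite directions in a pair of the annotations with at least 50 cells on both days; each annotation has 1 library per day, so the differences between them were not tested. Against day 0, Isg15 had the widest gap at day 7, with a log2 ratio of 2.62 in colonocytes and -1.36 in endothelial cells, a difference of 3.98, and -1.09 in lymphatics, a difference of 3.71 from colonocytes. In macrophages it was at 1.40, which differed by -2.76 and -2.50 from the endothelial and lymphatic values in that order. Ifit1 was at 1.75 in colonocytes and -1.30 in endothelial cells, a difference of 3.05, and in the same pair Oasl2 at 1.37 and -1.28 (2.65), Cd274 at 1.17 and -1.46 (2.63) and Ifit2 at 1.10 and -1.49 (2.59). Igtp was at the fold in colonocytes and at -1.64 in macrophages (2.64). Gbp7 and Irgm2 were lower in endothelial cells and higher in lymphatics, at -1.04 and 1.22 (-2.26) and at -1.09 and 1.24 (-2.33). Ifit2 also differed between colonocytes and fibroblasts (1.10 and -1.11, a difference of 2.21). At day 42 Isg15 was at 1.09 in colonocytes and -1.57 in endothelial cells, a difference of 2.66. Ifi27l2a at day 42 was at -1.41 in keratinocytes and 1.09 in T cells, a difference of -2.50, and the keratinocyte value changed sign with equal cluster weights. Between days 7 and 42, Isg15 was at -1.53 in colonocytes and 2.03 in neutrophils (a difference of -3.56), Gbp2 at -1.74 in colonocytes and 1.43 in keratinocytes (-3.17), and Iigp1 at -1.17 in colonocytes and 1.59 in T cells (-2.76), the last from 0 and 4 UMIs in T cells. Endothelial values of Ifit1, Ifit2, Oasl2 and Cd274 rest on 11 to 23 UMIs at day 0. Without the 10 top cells of each gene and library the endothelial Ifit1 value was 0.17, Ifit2 was at 0 and Isg15 at -0.59 there, and Ifit1, Ifit2, Igtp and Cd274 in colonocytes fell under the fold, at 0.70, 0.24, 0.54 and 0.60. With colonocytes that had no neutrophil marker UMI, Ifit1, Ifit2, Oasl2 and Igtp were below 0 in colonocytes at day 7.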

How the results depend on the processing

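Counts of members higher or lower are given by setting for colonocytes, keratinocytes, endothelial cells, fibroblasts and T cells. The other annotations were not rerun, and the cause of each move was not tested. No background share is given beside the counts in this section, so they do not tell a move of the members from a move of all genes. With 1 CPM added, colonocytes at day 7 had 23 higher and 1 lower, and 13 higher at day 42; keratinocytes had 7 lower at day 7 and 6 higher at day 42; endothelial cells had 1 higher at day 7 and 2 at day 42; fibroblasts had 3 higher and 3 lower at day 7 and 2 and 2 at day 42; T cells had 9 higher and 5 lower at day 7 and 9 and 2 at day 42. With 50 CPM added, colonocytes had 3 higher at day 7 and 0 at day 42, keratinocytes 0 higher and 0 lower at day 42, endothelial cells 1 lower at day 7 and 2 at day 42, fibroblasts 0 lower at day 7, and T cells 0 on both days in both directions. The mean of CPM per cell gave 8 higher in colonocytes at days 7 and 42, 1 in keratinocytes at day 42 and 1 in fibroblasts at day 7, and 0 lower in T cells at day 7. Equal cluster weights gave 1 higher and 0 lower in keratinocytes at day 42 and 1 higher in endothelial cells at day 42, and turned Ifi27l2a in keratinocytes at day 42 to 0.14. The cell filter gave 1 higher in keratinocytes and 2 in T cells at day 42. Without doublet-scored cells, 1 was higher in endothelial cells on both days and 0 lower in T cells at day 7. Without the 10 top cells of each gene and library, 6 were higher in colonocytes at day 7, 3 lower and 1 higher in endothelial cells at day 7, with Ifit1 at 0.17 and Irgm2 at 0.045, 5 and 7 lower in fibroblasts at days 7 and 42, 3 and 6 lower in T cells, and 1 higher in T cells at day 42. Without the top 10% of cells, an alternative chosen after seeing the data, 3 and 2 were higher in colonocytes at days 7 and 42, 1 in keratinocytes at day 42, 9 lower in endothelial cells at day 7, 3 lower in fibroblasts at day 42, 2 higher and 0 lower in T cells at day 7, and 1 higher and 3 lower at day 42. With colonocytes that had no neutrophil marker UMI, chosen after seeing the data, 2 were higher and 3 lower at day 7 and 2 higher at day 42, with Ifit1 at -0.051, Ifit2 at -0.17, Oasl2 at -0.15, Igtp at -0.76 and Iigp1 at -0.43 at day 7; with those at or below the median neutrophil share 1 was higher at day 42. In these annotations, median-of-ratios size factors, leaving out immune-marked cells (not run in T cells), and leaving out colonocyte cluster 22 or keratinocyte cluster 12 moved no count by over 1.5 times. Over all alternatives run in them, Ifi27l2a in keratinocytes at day 7, Irf1 in endothelial cells on both days and Isg15 there at day 42 passed the fold each time. No paired analysis was possible because each day has 1 library. With no filter on low genes the background shares moved in 19 of 20 comparisons and directions, to 0.169% to 2.86%. The members' median moved in 8 of 10 comparisons with 1 and with 50 CPM added, in 7 without the 10 top cells and in 10 without the top 10% of cells; in colonocytes at day 7 it ranged from -0.051 to 1.75 and in endothelial cells at day 7 from -1.23 to 0.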

Other observations

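Cells annotated as RBCs, of which 210 were in the day 7 library, had 25 of the 32 members at 0 UMIs, yet Rsad2 stood at 94 UMIs (111.7 CPM) and Isg15 at 98 UMIs (116.5 CPM); Ifitm3 had 48 UMIs. This was the highest Rsad2 level at day 7 of any annotation with at least 50 cells. In the 41 and 18 RBCs of days 0 and 42, Rsad2 was at 86.09 CPM (39.37 to 163.4) and 117.1 CPM (31.91 to 299.9).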
